A study of Mus musculus with 8 samples.

Results

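The genes described here are 10 components of Nodal and bone morphogenetic protein (BMP) signalling, namely Nodal, Tdgf1, Lefty1, Lefty2, Bmp4, Id1, Id2, Id3, Smad6 and Smad7. They were chosen by name, with earlier results of these data known. All 10 had a row in both deposited tables of FPKM values, which together hold 14709 gene identifiers. The study compared mouse embryonic stem cells (mESCs) with and without KLF3 protein, and asked how KLF3, a Kruppel-like factor that binds DNA, relates to the expression of early embryonic genes. All mESCs were labelled as C57BL/6(F) x 129/sv(M) with a developmental stage of 3.5 days and were kept in medium with serum and leukaemia inhibitory factor (LIF). In the first experiment, mESCs positive or negative for KLF3-GFP (below, positive and negative cells) were sorted, at 500 cells per sample, from a line grown from picked colonies that carried the part of KLF3 without its DNA-binding domain fused to GFP, driven by the CAGGS promoter, with DsRed as a marker of the construct. Libraries of these cells were made by Smart-seq2, which amplifies cDNA from few cells. In the second, GFP (GFP-OE-72h) or codon-optimized KLF3 (KLF3-OE-72h) was induced with doxycycline for 72 hours from the Col1a1 locus in picked clones of the R26 line, which carries the tetracycline transactivator at Rosa26, and poly(A) RNA was sequenced. Each of the 4 conditions had 2 samples, but each table gives 1 mean per condition. All levels below are therefore means made by the authors. Neither the spread between samples nor the number of reads is known, and no difference could be tested against replicate error.

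Nodal is a secreted ligand of the TGF-beta family. It needs the membrane-bound co-receptor Cripto, encoded by Tdgf1, to engage activin receptors, whose activity reaches the nucleus through Smad2, Smad3 and Smad4 and turns on, among others, the genes of its own inhibitors Lefty1 and Lefty2. BMP4 acts through a separate set of receptors on Smad1, Smad5 and Smad9, and in mESCs its best known targets are the Id genes, whose products block basic helix-loop-helix factors and help LIF to maintain self-renewal. Smad6 and Smad7 are inhibitory Smads that dampen the receptors. Serum has BMP activity of its own, so mESCs in serum receive a BMP signal from the medium as well.

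Differences are given as log2(FPKM + 1) of the positive or KLF3-OE-72h cells minus that of their control, a scale on which the change of weakly expressed genes looks smaller than it is. A gene was counted as higher or lower when its values differed by more than 2-fold on this scale and their mean was at least 1 FPKM. This limit is one of size and not a test. In sorted cells 22.1% of all 9212 genes over the minimum were past it (13.8% higher and 8.32% lower), and on overexpression 16.7% of 11179 genes (6.6% higher and 10.1% lower). Of the members, 3 of 9 were past the limit in sorted cells (Id2 higher, Tdgf1 and Bmp4 lower), where Smad6 was under the minimum. On overexpression 5 of 10 were past it (Bmp4, Id1 and Id3 higher, Lefty1 and Lefty2 lower). The median difference of the members was -0.38 in sorted cells, beside 0.03 for all genes, and 0.12 on overexpression, beside -0.18 for all genes. Neither median kept its sign under every alternative, with 0.21 in sorted cells at a minimum of 5 FPKM, which 7 members passed, and -0.0021 on overexpression with the trend of GC content removed.

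**Figure D1:**
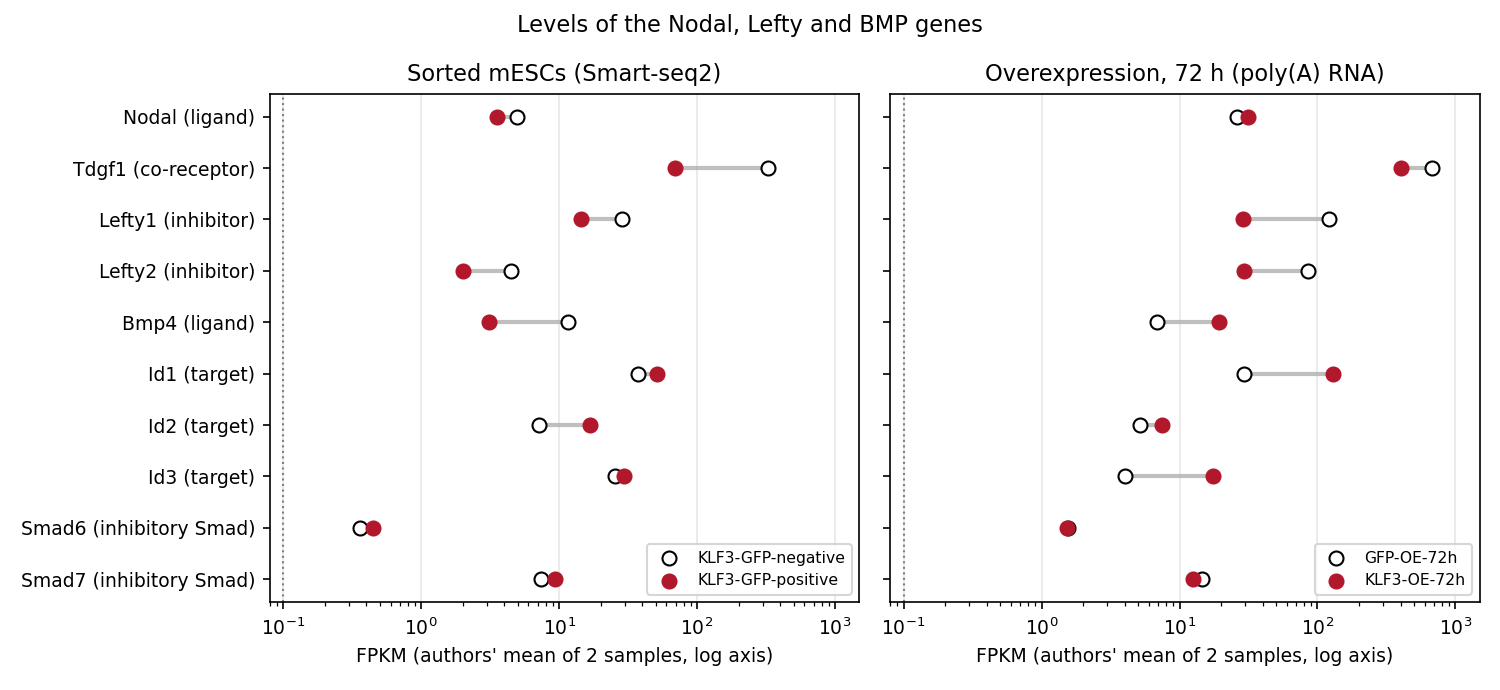
Levels of the 10 members in the 4 conditions, in FPKM on a log axis, with open circles for negative or GFP-OE-72h cells, red circles for positive or KLF3-OE-72h cells and a dotted line at the lowest value of the tables (0.1 FPKM). Each circle is the authors' mean of 2 samples. Tdgf1 has the highest level in every condition and Smad6 the lowest, and the circles of Bmp4 lie in opposite order in the panels.

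In sorted cells the positive population had less Tdgf1, less Bmp4 and more Id2. On overexpression the Lefty genes were lower and Bmp4, Id1 and Id3 higher in KLF3-OE-72h cells. Of these members only Bmp4 was past the limit in both experiments, in opposite directions. Tdgf1 and the Lefty genes had lower values in both experiments, and Id1, Id2 and Id3 higher ones. Start regions of Tdgf1, Bmp4 and Id3 are shown first as examples, picked with the values and letters known, because KLF3 binds CACCC boxes and related sites. RefSeq promoter windows (GRCm38.p6, the assembly of mm10) were found for 6 of the 10 members, and those of Tdgf1 and Bmp4 overlapped no annotated exon. The following stretches hold the 250 bases before the start site. Capitals mark CACCC, the wider motif CCNCNCCC, which can overlap CACCC and was added after the letters had been seen, and CAGAC, a core to which Smads bind, each on either strand.
Tdgf1, chr9:110946159-110946408, minus strand: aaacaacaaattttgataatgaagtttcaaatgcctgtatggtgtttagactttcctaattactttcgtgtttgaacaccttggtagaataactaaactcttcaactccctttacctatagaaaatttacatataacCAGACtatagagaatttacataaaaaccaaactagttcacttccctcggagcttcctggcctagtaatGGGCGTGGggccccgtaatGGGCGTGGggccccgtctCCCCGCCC
Bmp4, chr14:46390670-46390919, minus strand: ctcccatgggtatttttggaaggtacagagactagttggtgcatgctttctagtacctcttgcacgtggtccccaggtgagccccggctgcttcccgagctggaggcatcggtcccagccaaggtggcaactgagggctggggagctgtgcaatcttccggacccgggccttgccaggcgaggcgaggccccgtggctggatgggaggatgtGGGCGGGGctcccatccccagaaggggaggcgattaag
Neither window had CACCC, which 52.0% of all 32851 windows of this length hold. The Tdgf1 window had 3 matches to CCNCNCCC, a number that 16.7% of all windows reach. The first 2 of them lie in a 19-base unit that stands there 2 times in direct succession, from 48 to 11 bases before the start. It also had 1 match to CAGAC (42.2% of windows have at least 1). The Bmp4 window had 1 match to CCNCNCCC (45.9% of windows have at least 1) and none to CAGAC. The window of Id3 (chr4:136143572-136143821) ends at a RefSeq start that lies downstream of the gene start given below, so it falls inside the gene. It overlaps annotated exons, so only the stretches around its 2 matches to CACCC are shown. Capitals mark these matches alone there, as GGGTG for CACCC on the minus strand.
Id3, chr4:136143728-136143752, plus strand: gggcgggcggGGGTGgacccttggc
Id3, chr4:136143761-136143785, plus strand: ttgaataaggGGGTGtgtcctagag
At least 2 such matches are held by 21.1% of all windows. The Id3 window also had 2 matches to CCNCNCCC, both inside the first stretch, and 2 to CAGAC. That of Id2, which overlaps annotated exons too, had 2 matches to CACCC, 1 to CCNCNCCC and 1 to GGCGCC, an element of BMP-responsive enhancers that 9.59% of all windows hold. Smad6, which was not past the limit in either experiment, had 1 match to CACCC and 3 to CCNCNCCC, as many of the latter as Tdgf1. The window of Nodal had no match to any of these motifs. These matches describe the letters of the windows and no binding was measured.

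Nodal (ENSMUSG00000037171, chr10:61417972-61425338, plus strand) was the ligand of the first branch and was below the 2-fold limit in both experiments. In sorted cells its level was 4.96 FPKM in negative and 3.57 FPKM in positive cells, a difference of -0.38. On overexpression it was 26.0 FPKM in GFP-OE-72h and 31.2 FPKM in KLF3-OE-72h cells, a difference of 0.25. Nodal was thus slightly lower in one contrast and slightly higher in the other, and both differences lay well inside the middle 95% of all genes.

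Tdgf1 (ENSMUSG00000032494, chr9:110939603-110946158, minus strand), the Nodal co-receptor, had the highest level of all members in each condition. It fell from 324 FPKM in negative to 68.9 FPKM in positive cells, by 2.22 on the log2 scale or 4.70-fold in plain FPKM. This was the largest difference of any member in sorted cells, and only 0.51% of all genes had a lower value. The change on overexpression had the same direction but was smaller, from 673 FPKM in GFP-OE-72h to 405 FPKM in KLF3-OE-72h cells, a difference of -0.73, which passed the limit only with quantile normalization (-1.25).

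Lefty1 (ENSMUSG00000038793, chr1:180935022-180938400, plus strand) and Lefty2 (ENSMUSG00000066652, chr1:180893108-180899103, plus strand) encode the secreted Nodal inhibitors. The genes lie in the same direction 35.9 kb apart. Of the stretches of 50 bases in the longest coding transcript of Lefty1, 17.9% are also found in Lefty2 transcripts, so a part of the reads could be assigned to either gene, and the way the values were estimated decides how these reads were split. On overexpression Lefty1 was 121 FPKM in GFP-OE-72h and 29.0 FPKM in KLF3-OE-72h cells, a difference of -2.02 and 4.16-fold in plain FPKM. Lefty2 went from 86.1 to 29.5 FPKM in the same samples, a difference of -1.51. Both were among the lowest differences of all genes, at percentiles 0.44 and 2.03. Summed over both genes, the level was 207 FPKM in GFP-OE-72h and 58.5 FPKM in KLF3-OE-72h cells. The sum still depends in part on the split of shared reads, because FPKM is scaled by transcript length. The longest coding transcripts have 1620 bases for Lefty1 and 2473 bases for Lefty2. Relative to Nodal, the level of Lefty1 went from 4.63 times to 0.93 times that of the ligand, and Lefty2 from 3.30 times to 0.94 times.

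In sorted cells both Lefty genes were also lower in the positive population, at about the 2-fold limit. Lefty1 was 28.7 FPKM in negative and 14.4 FPKM in positive cells (difference -0.95). Lefty2 was 4.46 and 2.02 FPKM (difference -0.85, and 2.21-fold in plain FPKM). Neither passed the limit on the log2(FPKM + 1) scale. Lefty1 passed it with quantile normalization (-1.09), and Lefty2 passed it with a pseudocount of 0.1 or none (-1.14 with none). The ratio of Lefty1 to Lefty2 was 6.43 in negative and 7.10 in positive cells, against 1.40 in GFP-OE-72h and 0.98 in KLF3-OE-72h cells, but library protocols and cell lines differed between the experiments.

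Bmp4 (ENSMUSG00000021835, chr14:46383520-46390669, minus strand), the ligand of the BMP branch, was past the 2-fold limit in both experiments, in opposite directions. It was 11.6 FPKM in negative and 3.12 FPKM in positive cells, a difference of -1.61 and 3.71-fold in plain FPKM. On overexpression it was 6.87 FPKM in GFP-OE-72h and 19.2 FPKM in KLF3-OE-72h cells, a difference of 1.36 and 2.80-fold in plain FPKM. Under every scaling, pseudocount, minimum and trend correction tried, both differences kept their direction and stayed past the limit. The difference between the experiments was not tested. An exon of the gene Gm15217 overlaps Bmp4 on the opposite strand, and without strand, as in Smart-seq2 libraries, reads of this stretch cannot be told apart.

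The Id genes encode inhibitors of basic helix-loop-helix factors and are direct targets of the Smads on which BMP receptors act. On overexpression Id1 (ENSMUSG00000042745, chr2:152736251-152737410, plus strand) went from 29.6 FPKM in GFP-OE-72h to 129 FPKM in KLF3-OE-72h cells, a difference of 2.09 and 4.36-fold in plain FPKM. Id3 (ENSMUSG00000007872, chr4:136143497-136145755, plus strand) went from 4.01 to 17.4 FPKM, a difference of 1.88 and 4.34-fold in plain FPKM. Both lay above the 99th percentile of all genes, and their ratio to each other was 7.37 in GFP-OE-72h and 7.40 in KLF3-OE-72h cells. Id2 (ENSMUSG00000020644, chr12:25093801-25096092, minus strand) was 5.20 FPKM in GFP-OE-72h and 7.45 FPKM in KLF3-OE-72h cells, a difference of 0.45 that did not pass the limit.

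In sorted cells Id2 had the largest difference of the Id genes. It was 7.18 FPKM in negative and 16.7 FPKM in positive cells, a difference of 1.11 that was just past the limit and under it with quantile normalization (0.97). Id1 was 37.6 and 51.2 FPKM in these samples (difference 0.43) and Id3 was 25.3 and 29.3 FPKM (difference 0.21), neither past the limit. Id1 and Id3 did not stand out there, at percentiles 70.1 and 59.0 of all genes, with Id2 at 88.0. With quantile normalization Id3 was at 0.06. Id1, Id2 and Id3 thus had higher values in positive than in negative cells and in KLF3-OE-72h than in GFP-OE-72h cells. The exception was Id2 on overexpression, at -0.04 once the trend with genomic span had been removed. Id4, an Id gene that is not a member, was listed on overexpression alone and went the other way. It was 2.54 FPKM in GFP-OE-72h and 0.96 FPKM in KLF3-OE-72h cells (difference -0.85, and -1.31 with the span trend removed). At these low levels the difference of Id4 depended on the setting, from -1.40 to -0.38 over all alternatives. Summed over Id1, Id2 and Id3, the level was 70.1 FPKM in negative and 97.2 FPKM in positive cells. The sum was 38.8 FPKM in GFP-OE-72h and 154 FPKM in KLF3-OE-72h cells. In sorted cells this went with a lower level of Bmp4, and on overexpression with a higher one.

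Neither inhibitory Smad was past the limit in either experiment. Smad7 (ENSMUSG00000025880, chr18:75367529-75395935, plus strand), which blocks both branches, was 7.39 FPKM in negative and 9.28 FPKM in positive cells (difference 0.29). It was 14.5 FPKM in GFP-OE-72h and 12.5 FPKM in KLF3-OE-72h cells (difference -0.20). Smad6 (ENSMUSG00000036867, chr9:63953076-64022059, minus strand), which acts mainly on BMP receptors, had the lowest level of all members in every condition, with 0.36 and 0.45 FPKM in sorted cells and 1.56 and 1.54 FPKM on overexpression (difference -0.01). The sign of both genes on overexpression depended on the scaling, since with quantile normalization their differences were 0.04 for Smad7 and 0.22 for Smad6.

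**Figure D2:**
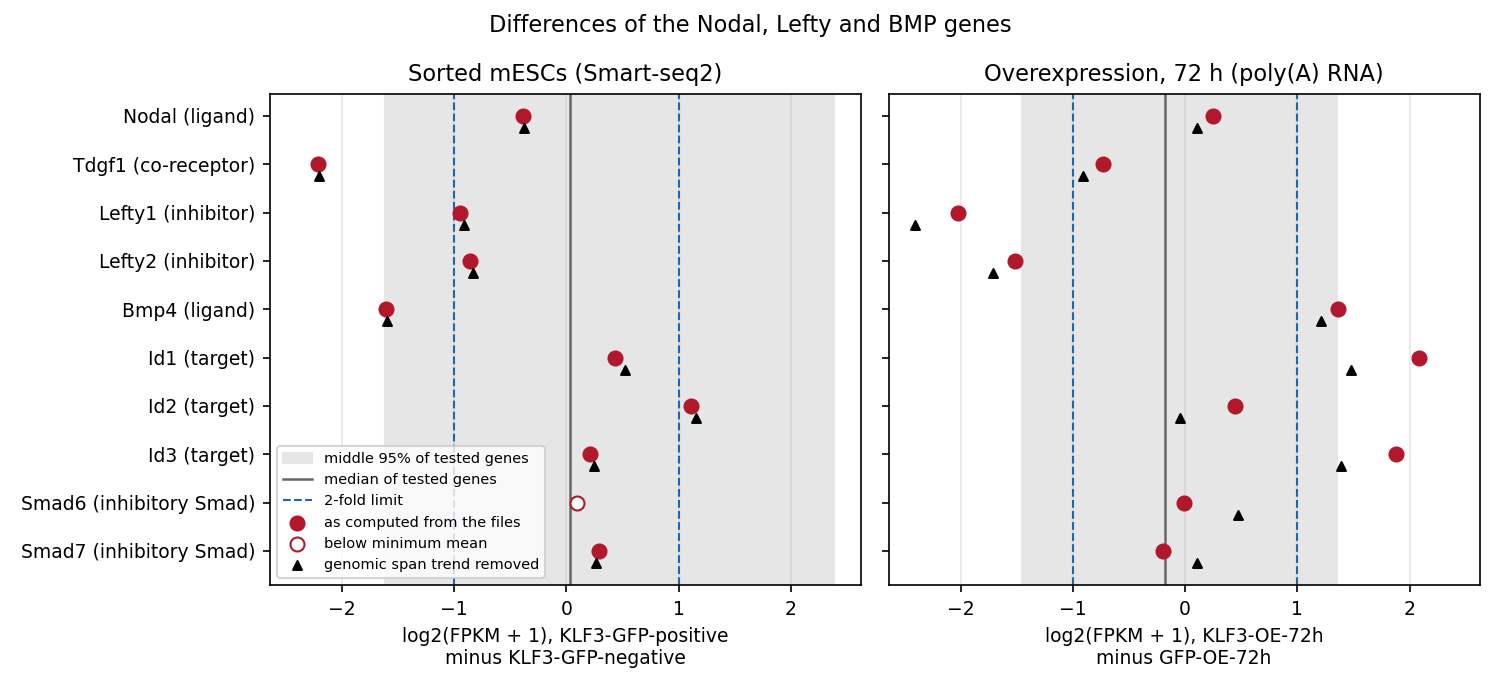
Differences of log2(FPKM + 1) of the 10 members in sorted cells (left) and on overexpression (right). Red circles are values as computed from the files, the open circle is Smad6 under the minimum mean, triangles have the trend with genomic span removed, the grey band holds the middle 95% of all genes, the solid line is their median and dashed lines are the 2-fold limits. Tdgf1 (-2.22) lies below the band in sorted cells, and on overexpression Lefty1 (-2.02) and Lefty2 (-1.51) lie below it and Id1 (2.09), Id3 (1.88) and, at its edge, Bmp4 (1.36) above it.

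On overexpression the differences depended on the genomic span of a gene, which had a median of 0.35 in the shortest and -0.49 in the longest of 5 groups with equal numbers of genes, against -0.03 and 0.12 in sorted cells. The members are mostly short, with 8 of 10 in the shortest group on overexpression. With this trend removed, the differences of the members past the limit were -2.40 for Lefty1, -1.71 for Lefty2, 1.21 for Bmp4, 1.47 for Id1 and 1.38 for Id3. Lefty1 and Lefty2 lay farther from the trend than from 0, and the values of Id1 and Id3 shrank, while each stayed past the limit. The median of all genes was also shifted, by -0.18, so that 39.4% of the genes past the limit were higher on overexpression, and with median-ratio scaling of the columns 62.6% were. Under that scaling the differences were -1.81 for Lefty1, -1.31 for Lefty2, 1.55 for Bmp4, 2.29 for Id1 and 2.06 for Id3.

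**Figure D3:**
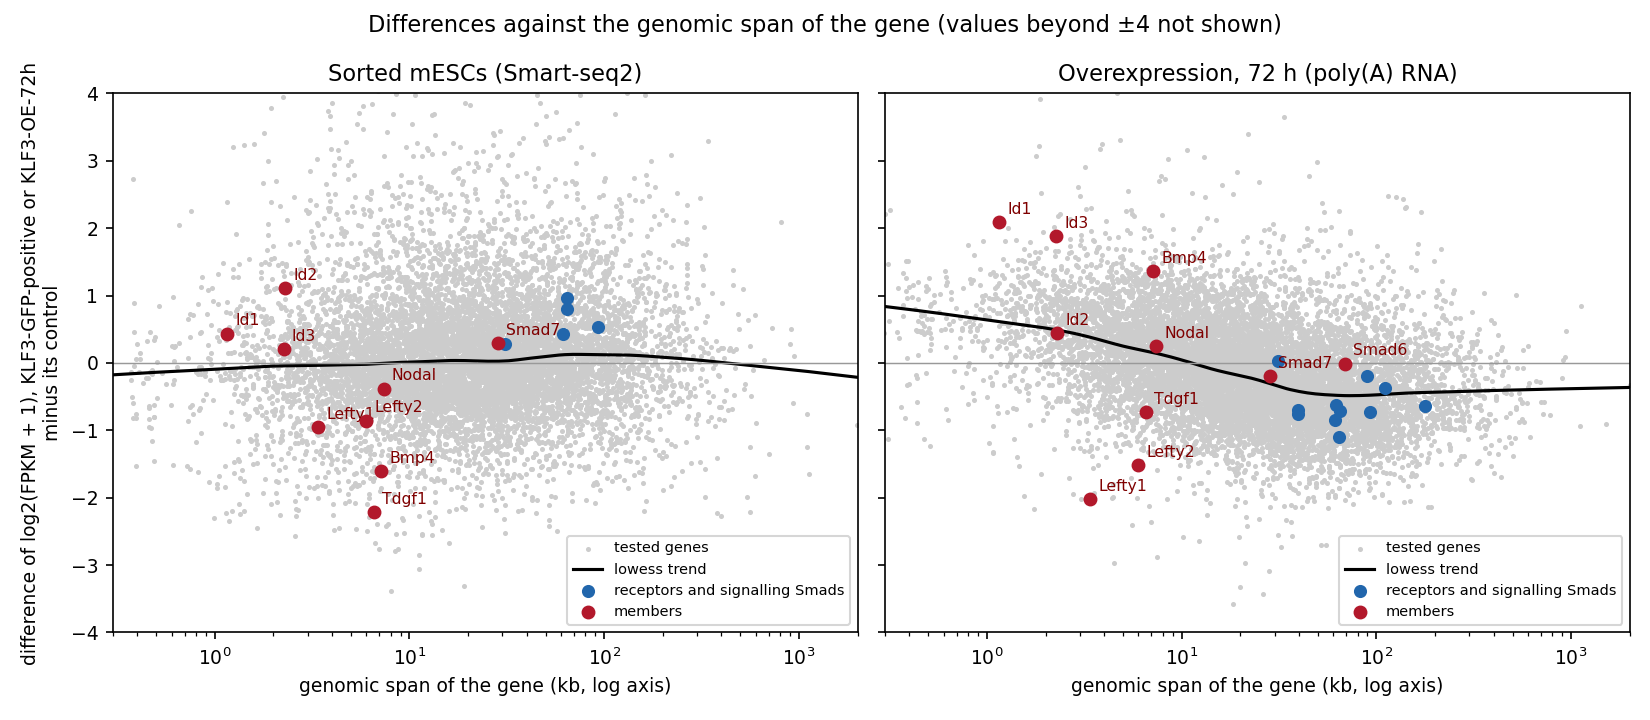
Difference of log2(FPKM + 1) against the genomic span of the gene in kb on a log axis, for all genes over the minimum (grey), the members (red) and the receptors and signalling Smads of both branches (blue), with the lowess trend as a black line. On overexpression the trend falls from short to long genes, and Id1, Id3 and Bmp4 lie above it and Lefty1, Lefty2 and Tdgf1 below it.

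The rest of the pathway was taken from a list of 91 genes of both branches that includes the members. The table of sorted cells listed 66 of them, of which 38 passed the minimum, with 5 higher and 5 lower (26.3%, beside 22.1% of all genes) and a median difference of 0.28. The overexpression table listed 77, of which 52 passed, with 6 higher and 6 lower (23.1%, beside 16.7%) and a median of -0.27. Without the members the shares were 24.1% of 29 genes and 16.7% of 42 genes, close to the background of each experiment.

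Among the ligands, Gdf3 and Gdf1, which like Nodal use Cripto and activin receptors, were lower in positive cells. Gdf3 was 36.2 FPKM in negative and 7.77 FPKM in positive cells (difference -2.08), whereas it was 49.0 and 44.5 FPKM in GFP-OE-72h and KLF3-OE-72h cells (difference -0.14). Gdf1 was 8.10 and 1.40 FPKM in sorted cells (difference -1.92) and 1.74 and 5.36 FPKM on overexpression (difference 1.21, and 0.67 with the span trend removed). Its locus lies inside that of Cers1, with which reads can be shared, and Cers1 went from 2.26 to 0.52 FPKM on overexpression. With Tdgf1 and Bmp4, these genes made 4 of the 5 lower pathway genes in sorted cells, and the fifth was Tgif1, which encodes a repressor that binds Smad2 (106 and 42.6 FPKM, difference -1.30).

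The receptors and signalling Smads pass the signal from the membrane to the nucleus. In sorted cells 5 of them passed the minimum and none was past the limit, with differences from 0.28 for Acvr2b (2.33 and 3.05 FPKM) to 0.96 for Smad4 (2.18 and 5.19 FPKM). The others were Bmpr1a at 0.53, Smad1 at 0.43 and Smad2 at 0.80. Smad4 passed the limit with a pseudocount of 0.1 or none (1.25 with none). On overexpression 11 passed the minimum, with a median of -0.69, and all but Acvr2b (0.04) were below 0. Smad2, which carries the Nodal signal, was past the limit (15.4 FPKM in GFP-OE-72h and 6.64 FPKM in KLF3-OE-72h cells, difference -1.10). It was not with median-ratio scaling (-0.91) or quantile normalization (-0.84). Acvr1b, the type I receptor of Nodal, was at -0.76, Smad3 at -0.37, Tgfbr1 at -0.62 and Acvr2a at -0.19. In the BMP branch Bmpr1a was at -0.73, Acvr1 at -0.63, Smad1 at -0.85 and Smad5 at -0.69, and the common Smad4 at -0.71. Without a pseudocount Smad1 (-1.07) and Acvr1 (-1.04) were past the limit. The receptors and signalling Smads are long, with a median span of 64.2 kb. With the span trend removed, their median was -0.22, 3 of 11 were above 0, none was past the limit and Smad2 was at -0.62. The levels of Acvrl1, Bmpr2, Bmpr1b and Tgfbr2 were under the minimum wherever they were listed.

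Further targets and modulators were past the limit in one experiment or both. Msx2, a homeobox target of BMP, was higher in both, with 0.79 and 7.60 FPKM in sorted cells (difference 2.26) and 0.71 and 2.98 FPKM on overexpression (difference 1.22). Furin, which encodes a protease that cleaves ligand precursors, went from 1.44 to 5.14 FPKM in sorted cells (difference 1.33). Bmper, which encodes a secreted BMP-binding protein, had 0.1 FPKM, the table's floor, in negative and 2.73 FPKM in positive cells. Msx2 in both experiments and Bmper in sorted cells passed the minimum only through the cells with KLF3.

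On overexpression the other genes past the limit had opposite directions. Drap1, which encodes a corepressor that binds FoxH1, was 140 FPKM in GFP-OE-72h and 302 FPKM in KLF3-OE-72h cells (difference 1.10, and 0.60 with the span trend removed). Skil, a repressor and target of Smad2 and Smad3, was 9.10 and 3.33 FPKM (difference -1.22). Smurf2, a ubiquitin ligase for Smads and receptors, was 7.49 and 2.36 FPKM (difference -1.34). Fstl1, a secreted protein that can bind BMPs, was 16.2 and 6.05 FPKM (difference -1.28). With the span trend removed Skil was at -0.93, Smurf2 at -0.86 and Fstl1 at -0.81, so that Drap1, Skil, Smurf2, Fstl1, Gdf1 and Smad2 were no longer past the limit, whereas Msx2 was (1.03). Foxh1, which encodes the partner of Smad2 at Nodal targets, and Id4 then were, at -1.47 and -1.31, from -0.92 and -0.85 before. With the trends of span, transcript length and GC content removed, Id4 was under the limit (-0.98).

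**Figure D4:**
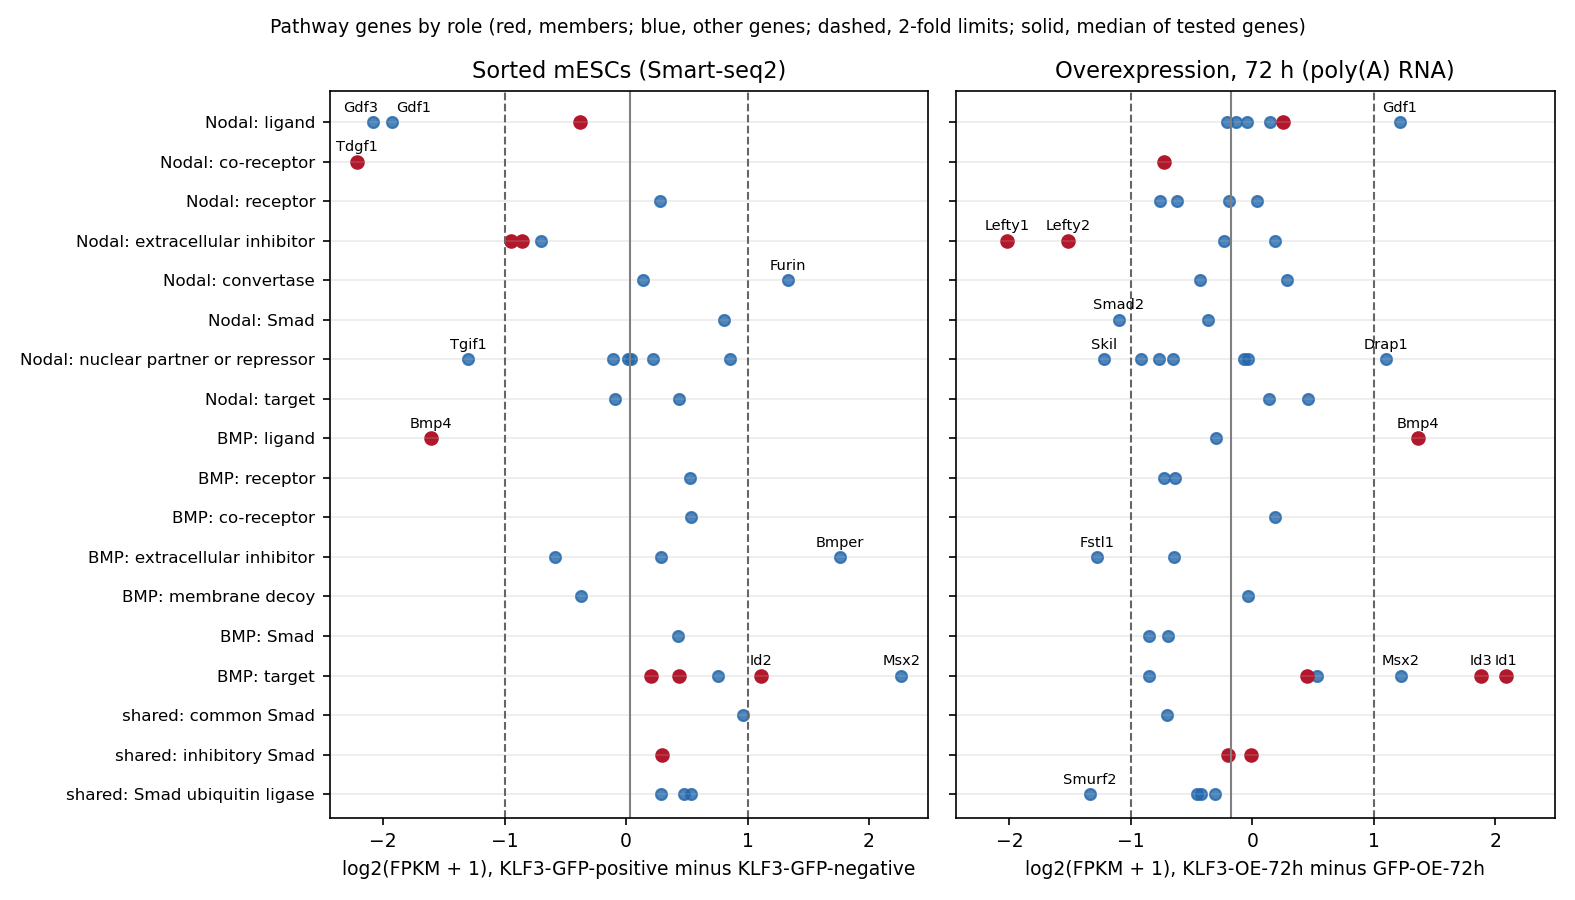
Differences of log2(FPKM + 1) of the reported genes of the pathway list over the minimum, arranged by branch and role, in sorted cells (left) and on overexpression (right). Red points are members and blue points other genes, dashed lines are the 2-fold limits and the solid line is the median of all genes, and genes past a limit are named. The BMP targets lie mostly to the right in both panels, and the Lefty genes lie past the limit on overexpression alone. These targets are short, with a median span of 2.45 kb on overexpression, where the shortest group of all genes had a median of 0.35. With the span trend removed Id1, Id3 and Msx2 stayed past the limit there, Id2 was at -0.04 and Id4 at -1.31.

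The label of the cells was checked with markers. Each of the 8 mESC markers was listed in both tables, with 4 lower in positive cells (Sox2, Nanog, Zfp42 and Esrrb). In KLF3-OE-72h cells Nanog and Esrrb were lower and Sall4 higher. Esrrb was not past the limit with median-ratio scaling (-0.97) or with the span trend removed (-0.74), nor was Sall4 with quantile normalization (0.91). Sox2 (difference -0.60) was past it with the span trend removed (-1.11), and Zfp42 (difference -0.82) with quantile normalization (-1.25). All 14 primitive endoderm markers were past the limit in both experiments, and they summed to 47.5 FPKM in negative against 1868 FPKM in positive cells, with Cubn and Foxa2 at the floor in negative cells. On overexpression the sums were 205 FPKM in GFP-OE-72h and 857 FPKM in KLF3-OE-72h cells. The control was under 1 FPKM for 7 of the 14 in sorted cells and for 3 on overexpression (Sox7, Pdgfra and Foxa2), so that these passed the minimum only through the cells with KLF3, and Sox7 on overexpression was not past the limit with the span trend removed (0.93). The changes of the members described above came with these changes, and their part in the result was not tested. In bulk samples fewer cells of a type and less RNA per cell cannot be told apart. Of the trophoblast markers, Krt8 and Krt18 were higher in both experiments and Hand1 on overexpression (with the control under 1 FPKM). Ascl2 was lower in sorted cells (difference -1.04, and -0.79 with the trends of span, transcript length and GC content removed). The trophoblast factor Cdx2 was at most 0.60 FPKM. Tfap2c had lower values in both experiments, at about the 2-fold limit. It was 2.40 and 0.77 FPKM in sorted cells (difference -0.94, and -1.03 with quantile normalization). On overexpression it was 26.2 and 13.1 FPKM (difference -0.95, and -1.03 with the span trend removed). Of the trophoblast markers over the minimum, 3 were above 0 and 2 below it in sorted cells, against 6 and 1 on overexpression. As many, 3 and 6, were above the median of all genes. Eomes in sorted cells and Ascl2 and Hand1 on overexpression passed the minimum only through the higher value, so they could not fall below 0. With the trends of span, transcript length and GC content removed, Ascl2 was at 0.12 and Eomes at 0.08 on overexpression. The mesendoderm markers summed to 2.54 and 10.04 FPKM in sorted cells and to 4.78 and 9.21 FPKM on overexpression. Of these Foxa2, also a primitive endoderm marker, was past the limit in both experiments. It was 0.1 and 7.45 FPKM in sorted cells and 0.34 and 4.77 FPKM on overexpression, so that it made up nearly all of the rise of the sums. Eomes was at most 3.43 FPKM, and T, Gsc and Mixl1 were at most 1.10 FPKM wherever listed. Fibroblast markers summed to 0.55 and 0.51 FPKM in sorted cells and to 3.85 and 4.41 FPKM on overexpression. Klf3 itself was 107 FPKM in negative and 122 FPKM in positive cells, where reads of the reporter can count towards the gene. It was 58.7 and 47.8 FPKM on overexpression, where reads of the codon-optimized transgene need not align to the gene, so these values do not check the labels.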

How the data were processed

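RNA-seq was analysed from 2 tables, 1 for sorted cells and 1 for overexpression. The authors aligned reads to mm10 with STAR using the GENCODE annotation and deposited FPKM values estimated by Cufflinks, as 1 mean of 2 replicates per condition, rounded to 2 decimals, with 0.1 as the lowest value. The submitters' processing notes give STAR 2.6.0 and Cufflinks 2.2.1, and the paper's methods give another version of STAR. Depth is unknown, since averaged and rounded FPKM do not show what 1 read is worth.

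Differences of log2(FPKM + 1) were computed in Python with pandas 2.3.3 where the mean of both columns reached 1 FPKM and called at a fold above 2 or below 0.5, with no test. For identifiers at several loci the locus with the highest mean was used. File starts count from 0 and were raised by 1. Alternatives were other pseudocounts and minimums, median-ratio and quantile scaling, and lowess trends (fraction 0.3, statsmodels 0.14.6) with span, and, added after the values were seen, with transcript length, GC content (GENCODE M21) and all of them. The scripts were tested on simulated data.

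The members and lists were chosen with earlier results of these data known. Named genes are the members, Klf3, the receptors and Smads of the pathway list, its genes past the limit (at most 12 an experiment), except 1 gene that is counted but not reported here, and, added after the values were seen, Cers1 and the markers.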

Additional observations from a re-analysis of the deposited data

How the results depend on the processing

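No paired analysis was possible because the tables hold 1 mean per condition, and for the same reason no replicate could be left out. Of the 20 member values in both experiments, 16 kept their side of the 2-fold limit under each of the 10 alternatives that gave a value, and the 8 values past the limit kept their sign. Smad6 in sorted cells, one of the 16, had a value under 6 of them, since it was under the minimum, and at a minimum of 5 FPKM values under it were kept as they were. The exceptions were Lefty1, Id2 and Lefty2 in sorted cells and Tdgf1 on overexpression, whose values stand beside the results. The counts of members past the limit stayed within 1.5 times of the main ones. A minimum mean of 5 FPKM left 5 pathway genes and 1257 of all genes past the limit in sorted cells, since fewer genes were kept (main counts 10 and 2033). On overexpression (main counts 12 and 1871), 2867 genes passed without a pseudocount, and 7 pathway genes and 1243 of all genes passed with the trends of span, transcript length and GC content removed. The cause of the latter was not tested. Depth is unknown and limits what can be said of low values such as those of Smad6.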
